A study of Homo sapiens with 18 samples.

Results

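The 28 genes described here encode enzymes of cholesterol synthesis, the sterol-sensing machinery that switches those enzymes on, and carriers that move or store cholesterol. They were taken from a written list of pathway members, with no measured value in the rule, and every listed gene that has counts was kept. The list was, however, chosen with earlier results of these data known. All 28 were among the 60709 genes with counts, and all 28 were among the 15189 genes that passed the filter on low counts, so no member is left out of the results.

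RNA was sequenced in bulk from MDA-MB-231 cells, a human triple-negative breast cancer line with mesenchymal features. A line with a short hairpin against IGFBP6 (sh-IGFBP6), the gene of a secreted protein that binds insulin-like growth factors, was compared with a line with a hairpin against luciferase (sh-LUC), which the labels call WT. In each line 1 group had DHA (docosahexaenoic acid, an omega-3 fatty acid) at 200 µM in ethanol with 0.5% DMSO. Another had erastin, an inhibitor of the cystine importer xCT, at 2.5 µM in DMSO with 0.5% ethanol, and the control group had 0.5% of both solvents, in each case for 24 h. There were 3 libraries in each of the 6 groups, 18 in all. The labels name 1 line per hairpin. They leave unstated whether replicates were cultured separately, so the p-values speak only of the spread between these libraries, which may be technical. The series title places the study in ferroptosis, a cell death driven by lipid peroxidation.

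Cholesterol is built from acetyl-CoA through mevalonate, isoprenyl diphosphates, squalene and lanosterol, and intermediates of the late steps are themselves active in lipid oxidation. When membranes of the endoplasmic reticulum are poor in sterol, SCAP escorts SREBP2, the product of SREBF2, to the Golgi, where it is cut and released to switch on nearly all genes of the route. When sterol is plentiful, INSIG1 and INSIG2 hold SCAP back, and INSIG1 and SREBF2 are themselves SREBP2 targets.

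SREBP2 binds sterol regulatory elements, short motifs found near the start of its target genes, usually beside sites for NF-Y and SP1. RefSeq promoter windows of GRCh38.p14, from 250 bases before the start to 50 bases from it on, were found for 25 of the 28 genes, in 34 windows of 300 bases. On both strands, the sterol regulatory core TCACNCCA was in 3 of the 34 windows (8.82%) and in 3.95% of all 35116 windows. The NF-Y motif CCAAT was in 21 of the 34 (61.8%), against 34.6% of all windows, and the SP1 motif GGGCGG was in 30 of the 34 (88.2%), against 45% of all windows. TCACNCCA can overlap CCAAT by its last bases, and a match is a run of letters, not a shown binding site. The windows with the core belong to MVK, MSMO1 and SREBF2. They are shown because MVK was among the 3 largest falls under erastin in sh-LUC cells and under DHA in sh-IGFBP6 cells. The other two were added after the values were seen because they alone shared the motif. The core is in capitals, 5′ to 3′ on the plus strand.
MVK, chr12:109573544-109573843: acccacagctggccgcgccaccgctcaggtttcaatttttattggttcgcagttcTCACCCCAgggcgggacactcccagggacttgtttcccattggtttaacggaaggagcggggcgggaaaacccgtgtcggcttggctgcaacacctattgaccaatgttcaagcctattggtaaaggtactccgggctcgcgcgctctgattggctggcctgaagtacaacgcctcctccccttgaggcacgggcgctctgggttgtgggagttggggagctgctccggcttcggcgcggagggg
MSMO1, chr4:165327419-165327718: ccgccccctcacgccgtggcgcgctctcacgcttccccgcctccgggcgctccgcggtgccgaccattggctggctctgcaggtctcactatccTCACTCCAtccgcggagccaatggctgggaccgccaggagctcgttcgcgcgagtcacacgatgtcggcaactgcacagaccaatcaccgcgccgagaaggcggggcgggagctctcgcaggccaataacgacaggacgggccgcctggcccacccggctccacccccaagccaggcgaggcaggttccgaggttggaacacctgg
SREBF2, chr22:41832855-41833154: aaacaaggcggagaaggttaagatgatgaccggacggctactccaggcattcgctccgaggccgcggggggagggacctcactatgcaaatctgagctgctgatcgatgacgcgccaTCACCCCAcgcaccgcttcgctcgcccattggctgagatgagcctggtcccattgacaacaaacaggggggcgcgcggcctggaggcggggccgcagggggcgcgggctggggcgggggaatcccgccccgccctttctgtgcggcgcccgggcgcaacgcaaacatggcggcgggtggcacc

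The targeted gene was low in every library of the knockdown line. IGFBP6 was at 0.901, 1.16 and 0.753 CPM (counts per 1000000, scaled by TMM, edgeR's trimmed mean of M values) in sh-IGFBP6 DHA libraries and at 0.540, 0.420 and 3.81 CPM in sh-IGFBP6 erastin libraries. The erastin values rest on 4, 2 and 1 counts of IGFBP6, in that order. IGFBP6 was at 0.602, 1.35 and 2.22 CPM in sh-IGFBP6 control libraries, and the 9 sh-LUC libraries lay between 12.3 and 20.9 CPM, with no overlap between the lines. Total gene counts ran between 609936 and 7977429 per library. Library 3 of the sh-IGFBP6 erastin group stood apart. Mitochondrial ribosomal RNA took 54.4% of its counts, against at most 0.504% in any other library, and left 278278 other counts, of which 553 fell on the 28 genes. CYP51A1 had 0 counts in it, and its TMM factor was 0.431, against 0.953 to 1.12 elsewhere. The number of genes called in comparisons that include its group is given with it and without it. All 18 libraries share 1 fit, so it also enters the other comparisons. The mesenchymal markers VIM, CD44, MSN and CAV1 summed to between 2566 and 3728 CPM in every library. CAV1, however, was lower in every treated library than in any control library of its line. Its fall was largest under DHA in sh-IGFBP6 cells (log2 fold change -1.36). The sum hides differences between the lines. CD44 was at 633, 641 and 678 CPM in sh-IGFBP6 and 1259, 1364 and 1382 CPM in sh-LUC control libraries. VIM went the other way, at 1150, 1139 and 1126 against 750.5, 755 and 764.5 CPM. Between the untreated lines 3 of the 4 were called lower and 1 higher in sh-IGFBP6 cells, where 32.1% of all genes were lower and 32.5% higher. The 4 leukocyte markers, 1 of them at 0 counts throughout, summed to at most 4.95 CPM and the 5 luminal epithelial markers to between 13.2 and 30.5 CPM. The 4 endothelial and fibroblast markers summed to at most 13.2 CPM in sh-IGFBP6 libraries. In sh-LUC cells their sum was lower after treatment, at 28.7 to 34.2 CPM in DHA and 15.9 to 20.5 CPM in erastin libraries, against 38.8 to 44.6 CPM in control libraries. Of these markers COL1A1 (log2 fold change -1.12) and PECAM1 (-1.32) fell under erastin there, beside the sterol genes, and their part in the results was not tested.

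Per kilobase of exon, the median level over the 18 libraries was highest for NPC2 at 41.3 CPM per kb, followed by SREBF2 at 37.8 and MSMO1 at 33.0 CPM per kb. It was lowest for GGPS1, at 1.63 CPM per kb, and HSD17B7, at 3.64 CPM per kb. MVK and CYP51A1 were both at 4.30 CPM per kb. The length used was that of all annotated exons of a gene together, which can exceed that of its transcripts. In such bulk libraries fewer cells with a transcript and less of it per cell cannot be told apart. Some counts may hold reads of other genes or lack reads from shared bases. GGPS1 shares 37.3% of its exon bases with TBCE and CYP51A1 79.4% with a protein-coding gene model, both on the same strand. ACAT2 shares 33.9% with SOD2-OT1, 26.5% with SOD2 and 9.2% with the abundant TCP1, all on the opposite strand. No counts were found for SOD2 or for the gene model over CYP51A1. Whether they were absent from the deposited genes or at 0 counts was not told apart. Pseudogenes named after HSD17B7 and CYP51A1 held 12.7% and 7.5% as many counts as the genes.

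**Figure D1:**
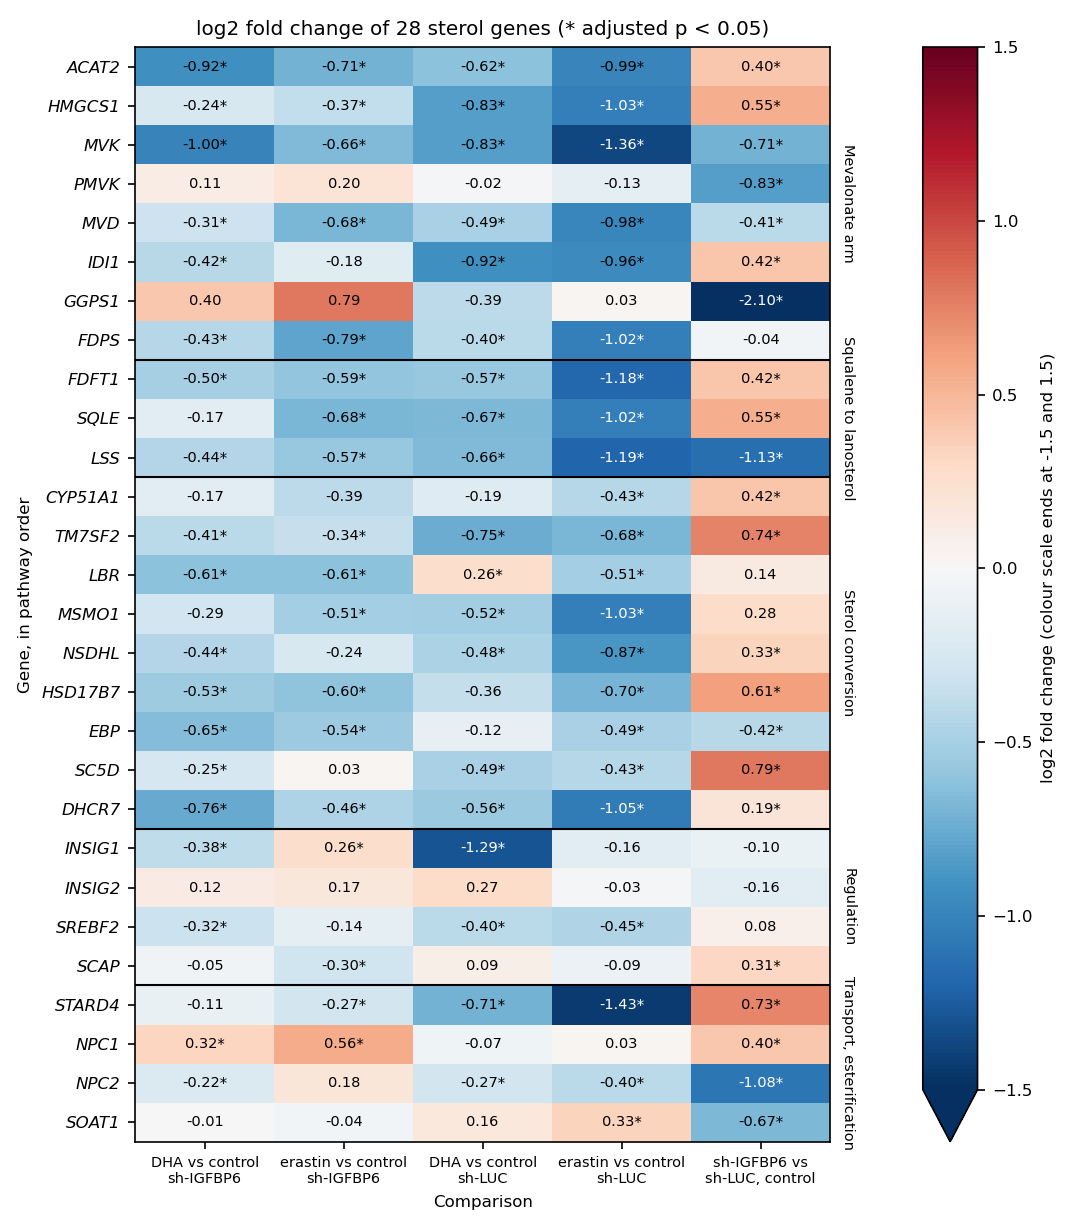
Each cell gives the log2 fold change of 1 of the 28 genes (rows, in pathway order) in 1 comparison (columns), coloured on a log2 scale and starred where the edgeR adjusted p was below 0.05. Blue cells, lower levels, fill most of the 4 treatment columns, with NPC1 and SOAT1 among the few red ones, while the column of the untreated lines holds both colours.

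Under erastin, sh-LUC cells carried less transcript of nearly the whole route. Of the 28 genes, 21 fell, 1 rose and 6 were not called, with edgeR's quasi-likelihood test and Benjamini-Hochberg adjusted p below 0.05 over all genes as the rule for a call, here and below. Among all genes tested, 24.4% were lower and 21.4% higher in the same comparison. The median log2 fold change was -0.69 over the 28 genes, against -0.02 over all genes. Of the 8 genes of the mevalonate arm 6 fell, and so did all 3 on the way to lanosterol and all 9 of the later sterol conversions.

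The largest fall was that of STARD4, a soluble carrier that moves cholesterol between membranes, with 19.4, 22.5 and 19.2 CPM in erastin libraries, against 50.2, 54.4 and 59.2 CPM in control libraries (log2 fold change -1.43, SE 0.10, adjusted p = 1.1e-24). MVK, mevalonate kinase, whose window opens the sequences above, was at 22.2, 22.6 and 24.3 CPM in erastin and 49.2, 64.9 and 61.8 CPM in control libraries (log2 fold change -1.36, SE 0.10, adjusted p = 8.2e-24). LSS, which closes squalene epoxide into lanosterol, was at 113, 124 and 118 CPM in erastin and 281, 264 and 266 CPM in control libraries (log2 fold change -1.19, SE 0.06, adjusted p = 1.2e-35). For these 3 genes the erastin libraries lay close together and all below the controls. HMGCS1, the cytosolic HMG-CoA synthase, was at 52.1, 55.2 and 53.3 CPM in erastin and 106, 108 and 114 CPM in control libraries (log2 fold change -1.03, SE 0.08, adjusted p = 1.0e-23). SQLE, squalene epoxidase, was at 17.6, 22.6 and 18.4 CPM in erastin and 36.8, 42.4 and 39.8 CPM in control libraries (log2 fold change -1.02, SE 0.12, adjusted p = 1.3e-13). TM7SF2, a sterol reductase that acts beside LBR, was at 18.3, 13.6 and 16.5 CPM in erastin and 27.9, 24.6 and 25.2 CPM in control libraries (log2 fold change -0.68, SE 0.13, adjusted p = 4.9e-06). Again no erastin library reached the lowest control. The falls of FDFT1, squalene synthase (log2 fold change -1.18), DHCR7, which makes cholesterol from 7-dehydrocholesterol (-1.05), MSMO1, a methyl oxidase (-1.03), and FDPS, farnesyl diphosphate synthase (-1.02), were also larger than 1 on the log2 scale, as were those of 9 of the 28 genes in all.

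Among the 4 regulators, SREBF2 fell and the others were not called in this comparison. SREBF2 was at 228, 225 and 226 CPM in erastin libraries, against 310.3, 314 and 302 CPM in control libraries (log2 fold change -0.45, SE 0.06, adjusted p = 7.0e-12), with no overlap. INSIG1 was at 106, 109 and 101 CPM in erastin and 112, 115 and 124 CPM in control libraries and was not called (log2 fold change -0.16, SE 0.07, adjusted p = 0.058), although all 3 erastin libraries were below the lowest control. INSIG2 was at 20.0, 20.4 and 21.0 CPM in erastin and 20.2, 22.2 and 20.4 CPM in control libraries (log2 fold change -0.03, SE 0.13, adjusted p = 0.869), within the same range. SCAP (log2 fold change -0.09), PMVK, phosphomevalonate kinase (-0.13), and GGPS1, geranylgeranyl diphosphate synthase (0.03), were not called either. The one rise was that of SOAT1, which esterifies cholesterol for storage, with 184, 191 and 189.9 CPM in erastin and 148, 142 and 159 CPM in control libraries (log2 fold change 0.33, SE 0.07, adjusted p = 1.1e-05). NPC1, the membrane protein that exports cholesterol from lysosomes, was at 201, 196 and 188 CPM in erastin and 186, 194 and 189 CPM in control libraries (log2 fold change 0.03, SE 0.06, adjusted p = 0.674), while its soluble partner NPC2 fell (log2 fold change -0.40). Under scaling by library size alone, the SOAT1 rise (0.22, adjusted p = 0.446) and the SREBF2 fall (-0.56, adjusted p = 0.0539) were not called. The calls of 2 genes rested on single libraries. CYP51A1, the lanosterol demethylase (adjusted p = 0.0341), was lost without erastin library 1 (0.111) or 2 (0.0591) or control library 3 (0.225). EBP, a sterol isomerase (0.00893), was lost without control library 1 (0.0625) or 3 (0.0513).

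**Figure D2:**
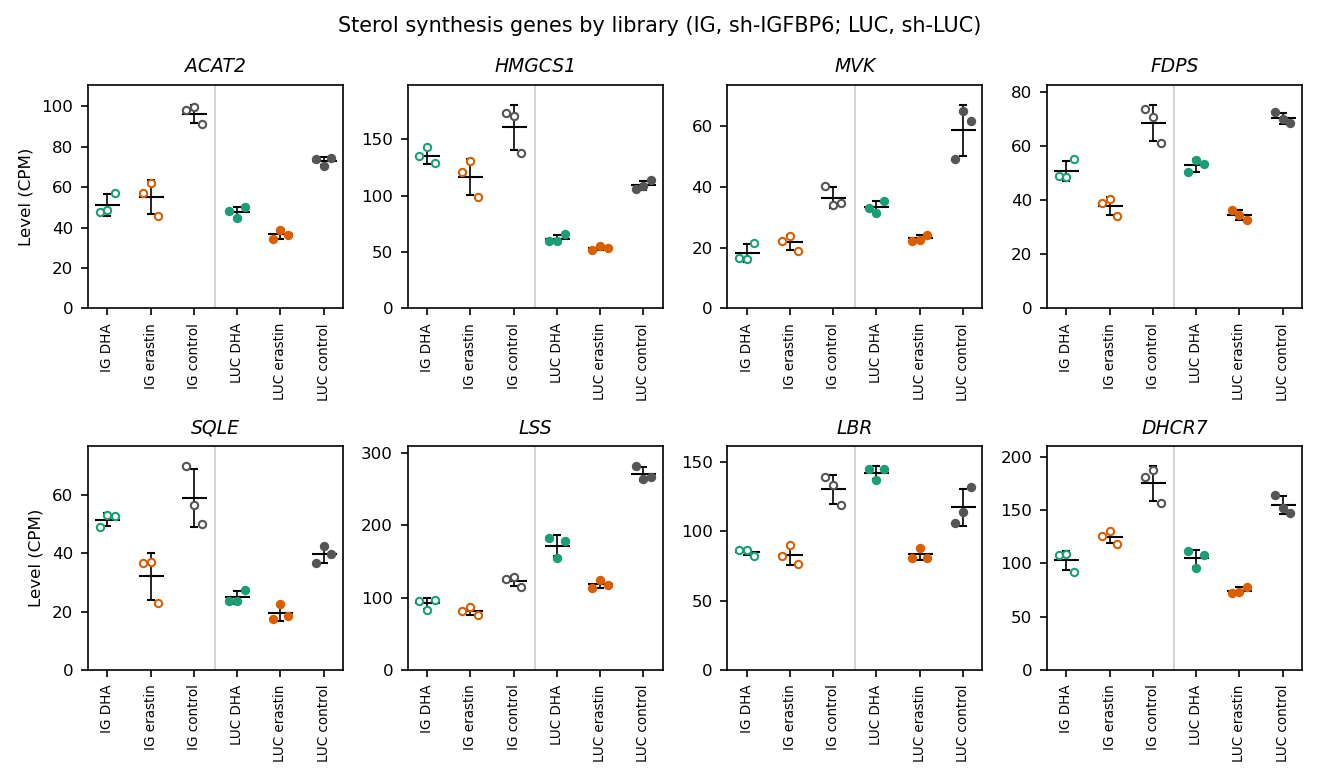
Points are single libraries and bars the mean ± SD (n = 3) in TMM-scaled CPM, for 8 synthesis genes in the 6 groups (IG, sh-IGFBP6; LUC, sh-LUC). In sh-LUC cells the erastin points of HMGCS1, MVK and LSS are all below the DHA points, which are all below the control points; for LBR all 3 sh-LUC DHA points are above the sh-LUC controls and all 3 sh-IGFBP6 DHA points below the sh-IGFBP6 controls.

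Most of the pathway also fell under DHA in sh-LUC cells, and INSIG1 fell most. Of the 28 genes 18 fell, 1 rose and 9 were not called, where 9.63% of all genes were lower and 7.14% higher. The median log2 fold change was -0.48 over the 28 genes, against 0.01 over all genes. The DHA and erastin responses of a line share their control libraries, so the pair of counts is given without a measure of likeness. With scaling by library size only, 9 of the 28 fell and none rose, and LSS (-0.61, adjusted p = 0.0643), SREBF2 (-0.35, 0.522), FDFT1, FDPS, MSMO1, NSDHL, SC5D, DHCR7 and NPC2 were no longer called lower. That fit held library 3 of the sh-IGFBP6 erastin group, since all 18 libraries share 1 fit. Of 252 results, 28 genes in 9 comparisons, 54 lost their call with that scaling, 3 gained one and 3 turned in sign. With that library also left out, 6 lost their call and 20 gained one. The cause was not tested.

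INSIG1 was at 47.1, 47.2 and 50.2 CPM in DHA libraries, against 112, 115 and 124 CPM in control libraries (log2 fold change -1.29, SE 0.08, adjusted p = 2.6e-29). Every DHA library was far below the lowest control and below every erastin library. IDI1, the isomerase that makes dimethylallyl diphosphate, was at 37.4, 41.5 and 49.8 CPM in DHA and 68.6, 73.6 and 98.0 CPM in control libraries (log2 fold change -0.92, SE 0.12, adjusted p = 6.5e-07). HMGCS1 was at 60.1, 59.4 and 65.7 CPM in DHA libraries (log2 fold change -0.83, SE 0.08, adjusted p = 3.3e-17) and MVK at 33.0, 31.4 and 35.5 CPM (log2 fold change -0.83, SE 0.10, adjusted p = 2.8e-12), against the control values given above, without overlap in either gene. The other synthesis genes with values by library were SQLE, at 23.7, 23.5 and 27.6 CPM in DHA libraries (log2 fold change -0.67, SE 0.11, adjusted p = 5.0e-07), LSS, at 182, 155 and 178 CPM (log2 fold change -0.66, SE 0.06, adjusted p = 4.7e-17), and TM7SF2, at 15.6, 15.6 and 14.7 CPM (log2 fold change -0.75, SE 0.13, adjusted p = 2.8e-06). All 3 lay below every control library. STARD4 was at 30.4, 33.2 and 36.7 CPM in DHA libraries (log2 fold change -0.71, SE 0.10, adjusted p = 1.1e-09) and SREBF2 at 242, 232 and 228 CPM (log2 fold change -0.40, SE 0.06, adjusted p = 1.8e-09).

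The gene that rose was LBR, a nuclear envelope protein that is also a sterol reductase, with 145, 137 and 145 CPM in DHA and 106, 114 and 132 CPM in control libraries (log2 fold change 0.26, SE 0.07, adjusted p = 0.00234). Its DHA libraries were all above its controls, although the call was lost without control library 1 (adjusted p = 0.0567) and with scaling by library size only (0.32, adjusted p = 0.422). INSIG2 was at 24.6, 27.4 and 23.2 CPM in DHA libraries, all above the control values, and was not called (log2 fold change 0.27, SE 0.12, adjusted p = 0.134). NPC1, at 188, 183 and 170.2 CPM (log2 fold change -0.07, SE 0.06, adjusted p = 0.469), and SOAT1, at 159, 155 and 190.5 CPM (log2 fold change 0.16, SE 0.07, adjusted p = 0.0731), were not called, nor were PMVK, GGPS1, CYP51A1, HSD17B7, EBP and SCAP. Leaving out control library 3 lost the calls of MSMO1 (adjusted p = 0.056), NSDHL, a C4 decarboxylase (0.259), and NPC2 (0.0666).

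Most of the pathway fell under erastin in sh-IGFBP6 cells too, by at most 0.79 on the log2 scale. Of the 28 genes 16 fell, 2 rose and 10 were not called, where 14.3% of all genes were lower and 14.7% higher. The median log2 fold change was -0.36 over the 28 genes, against 0.00 over all genes. Without the library rich in mitochondrial ribosomal RNA the same 18 genes were called, 16 lower and 2 higher. With scaling by library size only, 17 fell and none rose.

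FDPS fell most, with 39.2, 40.3 and 34.3 CPM in erastin and 73.8, 70.9 and 61.0 CPM in control libraries (log2 fold change -0.79, SE 0.10, adjusted p = 6.8e-12). ACAT2, a cytosolic thiolase that joins acetyl-CoA units, was at 57.1, 62.2 and 45.7 CPM in erastin and 98.2, 99.5 and 91.1 CPM in control libraries (log2 fold change -0.71, SE 0.09, adjusted p = 6.2e-12). SQLE was at 36.7, 37.0 and 22.9 CPM in erastin and 69.9, 56.7 and 50.2 CPM in control libraries (log2 fold change -0.68, SE 0.11, adjusted p = 5.8e-08), and MVD, which decarboxylates mevalonate diphosphate, had nearly the same log2 fold change, -0.68. In these genes the erastin libraries stayed below all controls. LSS was at 80.9, 86.5 and 76.2 CPM in erastin and 126, 129 and 115 CPM in control libraries (log2 fold change -0.57, SE 0.08, adjusted p = 1.1e-09). HMGCS1 was at 121, 130.4 and 99.0 CPM in erastin and 173, 171 and 138 CPM in control libraries (log2 fold change -0.37, SE 0.07, adjusted p = 1.8e-05). TM7SF2 was at 38.0, 29.4 and 22.9 CPM in erastin and 41.0, 47.2 and 40.1 CPM in control libraries (log2 fold change -0.34, SE 0.11, adjusted p = 0.0124). STARD4, the gene that fell most in sh-LUC cells, was at 73.5, 80.8 and 53.3 CPM in erastin and 94.2, 98.1 and 81.2 CPM in control libraries here, with the highest erastin and the lowest control library at about the same level (log2 fold change -0.27, SE 0.09, adjusted p = 0.0097). SCAP fell here (log2 fold change -0.30) and was not called in the other 3 treatment comparisons.

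NPC1 rose, with 365, 388 and 293 CPM in erastin and 269.5, 244 and 238 CPM in control libraries (log2 fold change 0.56, SE 0.06, adjusted p = 1.1e-13), and its groups did not overlap. INSIG1 rose as well, with 121, 145 and 122 CPM in erastin and 123, 114 and 93.0 CPM in control libraries (log2 fold change 0.26, SE 0.08, adjusted p = 0.00466), but its lowest erastin library was just below its highest control library. That rise was lost without erastin library 2 (0.15, adjusted p = 0.272) or control library 3 (0.15, 0.198), and with scaling by library size only it was 0.00 (adjusted p = 0.996), where the NPC1 rise was not called (0.18, 0.631). SREBF2 was at 298, 294 and 293 CPM in erastin and 335, 328 and 312 CPM in control libraries and was not called (log2 fold change -0.14, SE 0.06, adjusted p = 0.0655). INSIG2 was at 20.3, 22.3 and 15.2 CPM (log2 fold change 0.17, SE 0.14, adjusted p = 0.406) and SOAT1 at 93.7, 90.3 and 80.0 CPM (log2 fold change -0.04, SE 0.08, adjusted p = 0.759) in erastin libraries, both within or near their control values. Single libraries also decided TM7SF2, lost without erastin library 2 (-0.21, adjusted p = 0.249) or control library 2 (-0.25, 0.147) and at -0.59 without erastin library 1, and STARD4, lost without erastin library 1 or control library 2 (adjusted p = 0.115 in both). EBP was lost without erastin library 1 (adjusted p = 0.0593) or 2 (0.127), or control library 2 (0.138) or 3 (0.0539).

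DHA in sh-IGFBP6 cells lowered 18 of the 28 genes, raised 1 and left 9 uncalled, where 16.8% of all genes were lower and 17.4% higher. The median log2 fold change was -0.32, against 0.00 over all genes. With scaling by library size only, 11 fell and none rose, and INSIG1 (-0.47, adjusted p = 0.0525), LSS (-0.51, 0.0881), SREBF2 (-0.41, 0.246), HMGCS1 (-0.32, 0.239), MVD, SC5D and NPC2 were no longer called lower. MVK fell most, with 16.5, 16.4 and 21.6 CPM in DHA and 40.4, 34.1 and 34.7 CPM in control libraries (log2 fold change -1.00, SE 0.12, adjusted p = 1.3e-11). ACAT2 was at 47.8, 48.6 and 57.2 CPM in DHA libraries (log2 fold change -0.92, SE 0.08, adjusted p = 1.9e-18), and DHCR7 was at 108, 108 and 92.1 CPM in DHA, against 181, 187 and 157 CPM in control libraries (log2 fold change -0.76, SE 0.07, adjusted p = 5.0e-18). All 3 were separated from their controls. LSS was at 94.9, 83.3 and 97.3 CPM in DHA libraries (log2 fold change -0.44, SE 0.07, adjusted p = 2.4e-07), TM7SF2 at 33.6, 31.1 and 33.4 CPM (log2 fold change -0.41, SE 0.11, adjusted p = 0.00123) and HMGCS1 at 135, 143 and 129 CPM (log2 fold change -0.24, SE 0.07, adjusted p = 0.00338). The HMGCS1 call was lost without control library 1 (adjusted p = 0.0543) or 2 (0.0672). SQLE, at 49.0, 53.1 and 52.7 CPM in DHA libraries, was not called (log2 fold change -0.17, SE 0.09, adjusted p = 0.163), and neither was STARD4, at 80.5, 90.3 and 80.3 CPM (log2 fold change -0.11, SE 0.08, adjusted p = 0.282).

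Of the regulators in the same comparison, INSIG1 was at 84.1, 82.6 and 86.1 CPM in DHA libraries, all below its controls (log2 fold change -0.38, SE 0.08, adjusted p = 1.6e-05), and SREBF2 was at 247, 255 and 277 CPM (log2 fold change -0.32, SE 0.06, adjusted p = 5.5e-07). INSIG2, at 19.8, 19.8 and 21.3 CPM, was not called (log2 fold change 0.12, SE 0.14, adjusted p = 0.539). NPC1 was again the gene that rose, with 316, 323 and 296 CPM in DHA libraries and no overlap with its controls (log2 fold change 0.32, SE 0.06, adjusted p = 2.5e-06), though not called with scaling by library size only (0.24, adjusted p = 0.555). SOAT1 was at 97.6, 96.2 and 86.1 CPM in DHA libraries (log2 fold change -0.01, SE 0.08, adjusted p = 0.94). LBR fell here, by a log2 fold change of -0.61, while it rose in sh-LUC cells. Calls that rested on single libraries were those of EBP (-0.65), which was -0.31 without DHA library 2 (adjusted p = 0.305), and MVD, SC5D and NPC2, each lost without 1 of at least 2 libraries. For MVD these were DHA library 2 (adjusted p = 0.0626) and control library 2 (0.121). For SC5D, the sterol desaturase before DHCR7, they were DHA library 3 (0.0801) and control libraries 1 (0.0763) and 2 (0.0507). For NPC2 they were DHA library 1 (0.218) and control libraries 1 (0.1) and 2 (0.0879). PMVK, GGPS1 and INSIG2 were not called in any of the 4 treatment comparisons.

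**Figure D3:**
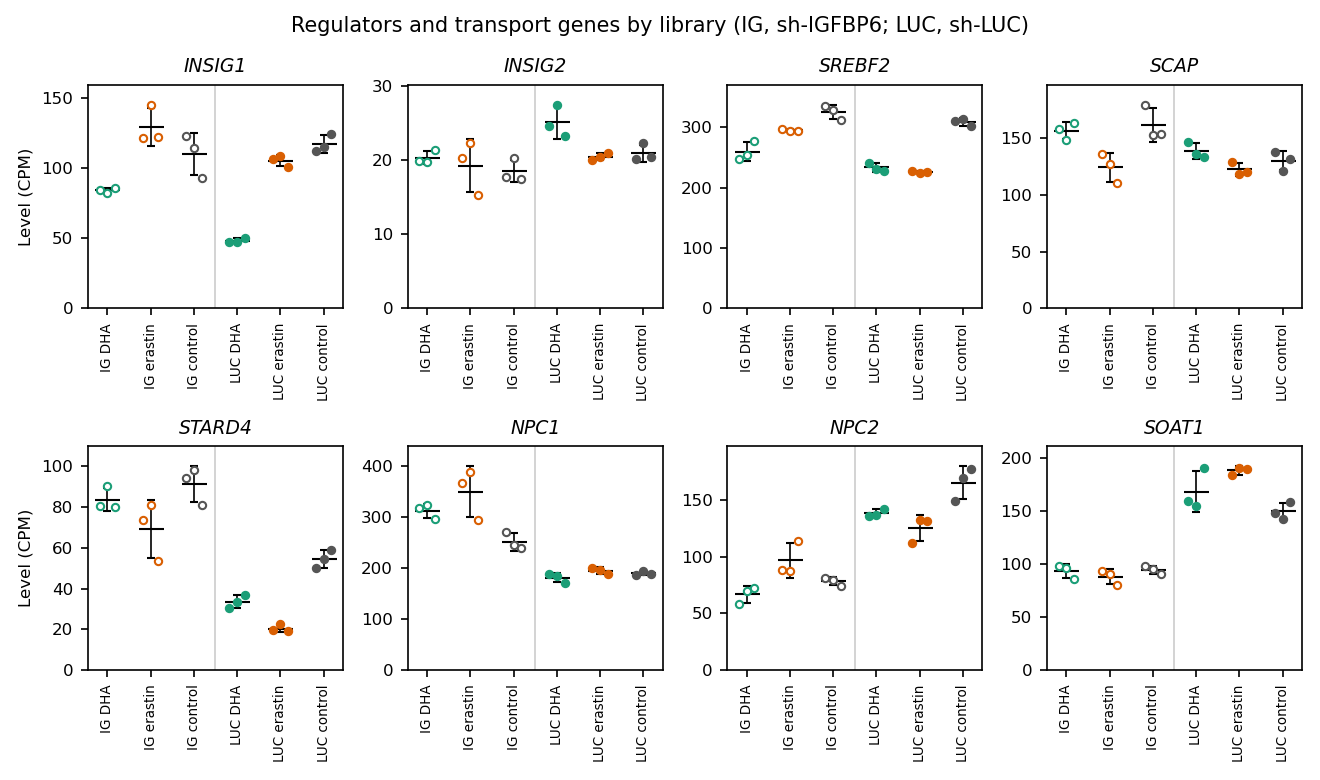
Points are single libraries and bars the mean ± SD (n = 3) in TMM-scaled CPM for 4 regulators and 4 transport or storage genes in the 6 groups (IG, sh-IGFBP6; LUC, sh-LUC). INSIG1 is lowest in sh-LUC DHA libraries, STARD4 is lowest in sh-LUC erastin libraries and higher in every sh-IGFBP6 library but 1 than in any sh-LUC library, and NPC1 is raised over control by both compounds only on the sh-IGFBP6 side of its panel.

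Without treatment, the lines differed in both directions along the pathway, with 6 genes not called. Of the 28 genes 14 were higher and 8 lower in sh-IGFBP6 than in sh-LUC control cells, where 32.5% of all genes were higher and 32.1% lower, so the share that was lower was near that of all genes. The median log2 fold change was 0.24, against 0.01 over all genes. Since each hairpin is represented by 1 line, the knockdown and other differences between the lines cannot be told apart. SC5D was higher, with 102, 96.6 and 83.9 CPM in sh-IGFBP6 and 44.9, 56.5 and 59.9 CPM in sh-LUC control libraries (log2 fold change 0.79, SE 0.09, adjusted p = 6.4e-14). TM7SF2 was higher too (log2 fold change 0.74, SE 0.12, adjusted p = 3.1e-08), and so was STARD4 (log2 fold change 0.73, SE 0.09, adjusted p = 1.6e-12), from the values given above, with no overlap in any of the 3. HMGCS1 (log2 fold change 0.55) and SQLE (0.55) were also higher in sh-IGFBP6 cells.

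The larger differences ran the other way. GGPS1, which leads out of the sterol route towards protein prenylation, was at 1.2, 3.08 and 1.97 CPM in sh-IGFBP6 and 10.6, 8.72 and 9.58 CPM in sh-LUC control libraries (log2 fold change -2.10, SE 0.30, adjusted p = 3.9e-10). The sh-IGFBP6 values rest on 4, 16 and 8 counts, in that order, and GGPS1 shares 37.3% of its exon bases with TBCE. LSS was lower in sh-IGFBP6 cells (log2 fold change -1.13, SE 0.07, adjusted p = 2.0e-32), and NPC2 was at 81.6, 79.4 and 74.6 CPM in sh-IGFBP6 and 149.7, 169.5 and 178 CPM in sh-LUC control libraries (log2 fold change -1.08, SE 0.08, adjusted p = 1.2e-26). None of the 3 overlapped between the lines. SOAT1, the gene of cholesterol storage, was also lower (log2 fold change -0.67, SE 0.07, adjusted p = 1.3e-14), and NPC1 was higher (log2 fold change 0.40, SE 0.06, adjusted p = 1.3e-08). INSIG1 (log2 fold change -0.10), INSIG2 (-0.16), SREBF2 (0.08), FDPS (-0.04), LBR (0.14) and MSMO1 (0.28, adjusted p = 0.0524) were not called. Calls were lost on leaving out 1 library for CYP51A1 (0.24, adjusted p = 0.295, without sh-IGFBP6 library 2), NSDHL (0.21, 0.21, without sh-LUC library 1), EBP (-0.34, 0.131, without sh-LUC library 1) and DHCR7 (0.13, 0.138, without sh-IGFBP6 library 2). When only library size was used for scaling, NPC1 (0.50, adjusted p = 0.0581), MVD (-0.31, 0.0583), SCAP (0.41, 0.0875), EBP (-0.32, 0.181) and DHCR7 (0.28, 0.231) were not called.

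The erastin response itself differed between the lines. The difference, sh-IGFBP6 minus sh-LUC in log2 fold change, was called above 0 for 14 of the 28 genes, below 0 for 1 and not called for 13, where 14.1% of all genes were above 0 and 12% below. Its median was 0.38, against 0.02 over all genes. STARD4 led with a fold change of -0.27 in sh-IGFBP6 and -1.43 in sh-LUC cells on the log2 scale (difference 1.16, SE 0.13, adjusted p = 2.5e-12). IDI1 followed with -0.18, not called, in sh-IGFBP6 and -0.96 in sh-LUC cells (difference 0.78, SE 0.16, adjusted p = 4.6e-04), and MVK with -0.66 and -1.36, in that order (difference 0.70, SE 0.16, adjusted p = 3.3e-04). HMGCS1 differed by 0.66 (adjusted p = 2.5e-07), LSS by 0.62 (adjusted p = 2.6e-07) and DHCR7 by 0.59 (adjusted p = 1.2e-06). All of these fell less in sh-IGFBP6 cells, since both log2 fold changes were below 0.

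In the same test INSIG1 (difference 0.42, SE 0.10, adjusted p = 9.1e-04) and NPC1 (difference 0.52, SE 0.09, adjusted p = 4.4e-07) were above 0 with a called rise in sh-IGFBP6 cells and no call in sh-LUC cells, and NPC2 (difference 0.59, SE 0.11, adjusted p = 4.6e-06) was above 0 with a called fall in sh-LUC cells and no call in sh-IGFBP6 cells. SOAT1 was below 0 (difference -0.37, SE 0.10, adjusted p = 0.00394): it rose in sh-LUC cells and was not called in sh-IGFBP6 cells. For SQLE (difference 0.34, SE 0.16, adjusted p = 0.0945), TM7SF2 (difference 0.34, SE 0.17, adjusted p = 0.143) and INSIG2 (difference 0.20, SE 0.19, adjusted p = 0.492) no difference was called. Without the library rich in mitochondrial ribosomal RNA, 14 genes were called, 13 of them above 0. With scaling by library size only, 3 genes were called, STARD4, MVK and IDI1, all above 0; with that scaling and without that library, a setting added after the data were seen, 16 were called, 15 above 0. MSMO1 lost its call without that library (0.48, adjusted p = 0.0555) and without any of 7 others. These were sh-LUC erastin 1 (0.0686) and 3 (0.051), sh-LUC DHA 1 (0.0684), sh-LUC control 2 (0.0871) and 3 (0.115), sh-IGFBP6 erastin 2 (0.122) and sh-IGFBP6 DHA 2 (0.0532). NSDHL lost its call without sh-LUC control 3 (0.124), sh-IGFBP6 erastin 1 (0.0552) or sh-IGFBP6 control 2 (0.0524).

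**Figure D4:**
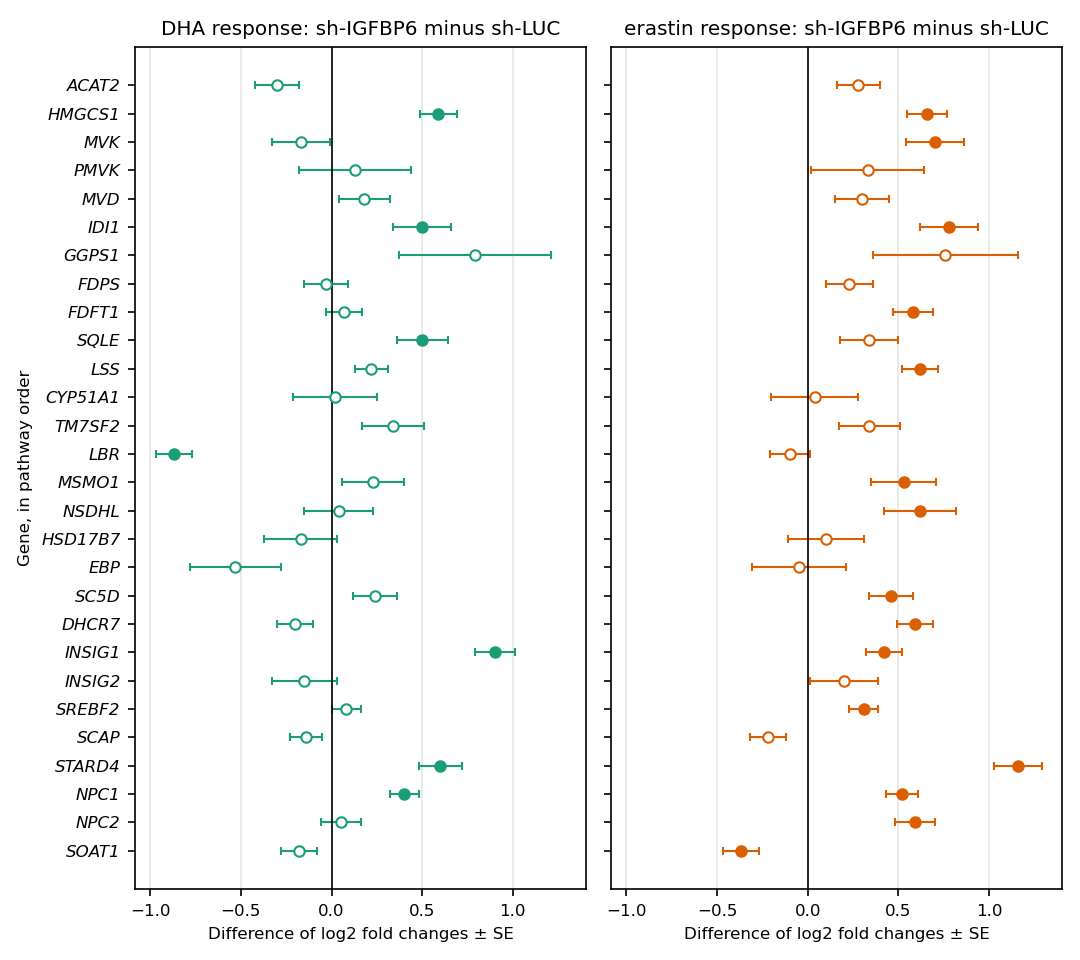
Points give, for each gene in pathway order, the log2 fold change over control in sh-IGFBP6 cells minus that in sh-LUC cells, with its SE, for DHA (left) and erastin (right); filled points have an edgeR adjusted p below 0.05. Most erastin points lie right of 0, with STARD4 at 1.16, while the DHA points scatter on both sides, with INSIG1 at 0.90 and LBR at -0.87.

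For DHA fewer genes differed between the lines. The difference was above 0 for 6 of the 28 genes, below 0 for 1 and not called for 21, where 10.4% of all genes were above 0 and 10.2% below. Its median was 0.07, against 0.00 over all genes. INSIG1 differed most, with a log2 fold change of -0.38 in sh-IGFBP6 and -1.29 in sh-LUC cells (difference 0.90, SE 0.11, adjusted p = 2.5e-11). STARD4 was -0.11, not called, in sh-IGFBP6 and -0.71 in sh-LUC cells (difference 0.60, SE 0.12, adjusted p = 7.5e-05), and HMGCS1 was -0.24 in sh-IGFBP6 and -0.83 in sh-LUC cells (difference 0.59, SE 0.10, adjusted p = 1.7e-06). LBR was the gene below 0, lower after DHA in sh-IGFBP6 cells and higher in sh-LUC cells (difference -0.87, SE 0.10, adjusted p = 1.7e-12). The DHA libraries showed it directly, with 86.2, 86.5 and 82.3 CPM in sh-IGFBP6 and 145, 137 and 145 CPM in sh-LUC cells, against controls at 139, 133 and 119 CPM in sh-IGFBP6 and 106, 114 and 132 CPM in sh-LUC cells. SQLE (0.50), IDI1 (0.50) and NPC1 (0.40) were above 0 as well.

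Scaling changed the split between higher and lower differences in the DHA response. With library size only, 1 gene was called above 0, INSIG1, and 1 below, LBR; with the atypical library also left out, 4 were above 0 and 6 below. The 6 below were ACAT2 (-0.43), EBP (-0.66), LBR (-1.01), DHCR7 (-0.34), SCAP (-0.27) and SOAT1 (-0.31). IDI1 lost its call without sh-LUC DHA 2 (adjusted p = 0.0858), sh-LUC control 3 (0.31, 0.101), sh-IGFBP6 DHA 1 (0.0654) or 3 (0.0827), or sh-IGFBP6 control 2 (0.0733), and SQLE without sh-IGFBP6 control 3 (0.0589).

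Set against each other at these doses, the compounds left different levels in sh-LUC cells. DHA libraries were higher than erastin libraries in 17 of the 28 genes, lower in 3 and not called in 8, where 26.0% of all genes were higher and 24.2% lower; the median was 0.32, against 0.01 over all genes. LBR (log2 fold change 0.77, SE 0.06, adjusted p = 8.7e-21), STARD4 (log2 fold change 0.72, SE 0.10, adjusted p = 4.6e-10) and FDPS (log2 fold change 0.62, SE 0.08, adjusted p = 6.4e-11) were most above. INSIG1, at 47.1, 47.2 and 50.2 CPM in DHA and 106, 109 and 101 CPM in erastin libraries, was most below (log2 fold change -1.13, SE 0.07, adjusted p = 1.3e-28), followed by GGPS1 (-0.42) and SOAT1 (-0.16). DESeq2 called 12 of the 28, 11 higher and 1 lower. GGPS1 was lost without DHA library 1 (-0.23, adjusted p = 0.302) and erastin library 1 (0.0578) or 3 (0.176), and SOAT1 was lost without DHA library 1 (-0.12, 0.111) or 2 (-0.10, 0.213), or erastin library 2 (0.0635) or 3 (0.0517). HMGCS1, at 0.20, was lost without erastin library 1 (0.0634) or DHA library 3 (0.11), and SQLE, at 0.35, without DHA library 3 (0.0531). HSD17B7, EBP, SCAP and INSIG2 were each lost without at least 1 library too. When only library size was used for scaling, GGPS1 (-0.26, adjusted p = 0.29), SOAT1 (0.00, 0.998), HMGCS1 (0.37, 0.117) and SCAP (0.34, 0.197) were not called.

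In sh-IGFBP6 cells fewer genes were called between the compounds. DHA libraries were higher than erastin libraries in 4 genes, lower in 6 and not called in 18, where 13.1% of all genes were higher and 12.8% lower, with a median of -0.06 against 0.00 over all genes. The higher ones were SQLE (log2 fold change 0.51, SE 0.11, adjusted p = 6.2e-05), MVD (0.36), FDPS (0.36) and SCAP (0.26). The lower ones were INSIG1 (log2 fold change -0.65, SE 0.08, adjusted p = 1.5e-11), NPC2 (-0.40), DHCR7 (-0.30), SC5D (-0.28), NPC1 (-0.24) and SREBF2 (-0.19). INSIG1 was thus lower after DHA than after erastin in both lines. Without the library rich in mitochondrial ribosomal RNA 12 genes were called, 4 higher and 8 lower; with scaling by library size only 1 was called, higher. Leaving out erastin library 1 lost MVD (adjusted p = 0.0658), FDPS (0.0512) and SREBF2 (0.121), and leaving out erastin library 2 lost MVD (0.0521), SCAP (0.0546) and NPC1 (0.0757). SREBF2 was also lost without DHA library 1 (0.0811) or 2 (0.0588), and SC5D without DHA library 3 (0.0687).

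Genes around the pathway were grouped in lists written with earlier results in view, and their counts stand against the shares of all genes called. Those shares, lower and then higher, were 16.8% and 17.4% under DHA and 14.3% and 14.7% under erastin in sh-IGFBP6 cells, and 9.63% and 7.14% under DHA and 24.4% and 21.4% under erastin in sh-LUC cells. The median log2 fold change over all genes was between -0.02 and 0.01. Of 10 further genes of SREBP processing and sterol-regulated degradation, 2 fell and 2 rose under erastin in sh-LUC cells, 1 fell under DHA there, 2 fell and 1 rose under erastin in sh-IGFBP6 cells, and 4 fell and 1 rose under DHA there. Most of these counts were near the shares of all genes, and the list's median lay between -0.16 and 0.02. SREBF1, which encodes the lipogenic partner of SREBP2, fell in all 4, with log2 fold changes of -1.02 under DHA and -0.43 under erastin in sh-IGFBP6 cells and -1.25 under DHA and -0.85 under erastin in sh-LUC cells. Of 11 tested genes of other sterol uptake and transport, 4 fell and 4 rose under DHA and 3 fell and 3 rose under erastin in sh-IGFBP6 cells, and 4 fell and 3 rose under DHA and 5 fell and 3 rose under erastin in sh-LUC cells, with medians between -0.16 and 0.05. VLDLR, a lipoprotein receptor, rose in sh-LUC cells under DHA (1.18) and erastin (1.67). MYLIP, a ubiquitin ligase that acts on lipoprotein receptors, fell under DHA in sh-IGFBP6 (-0.70) and sh-LUC cells (-1.03) and rose under erastin in sh-IGFBP6 cells (0.82).

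In the branches that lead away from sterols, most genes were not called, as was so among all genes. Of 12 genes for ubiquinone, dolichol and protein prenylation, 1 fell and 4 rose under erastin in sh-LUC cells, none fell and 1 rose under DHA there, 3 fell and 1 rose under erastin in sh-IGFBP6 cells, and 2 fell and 3 rose under DHA there. The medians lay between -0.15 and 0.04, and several of these counts were near the shares of all genes. PDSS1, which makes the ubiquinone side chain, rose under erastin (0.91) and DHA (0.67) in sh-LUC cells. Of 5 electron donors and scaffolds that serve the sterol enzymes, 4 fell under erastin and 2 under DHA in sh-LUC cells, and 2 fell under erastin and 3 under DHA in sh-IGFBP6 cells, where POR, the cytochrome P450 reductase, rose under DHA (0.30). Their median was between -0.45 and -0.16 over the 4 comparisons. CYB5A, cytochrome b5, fell in all 4, between -0.94 under DHA in sh-IGFBP6 cells and -0.59 under DHA in sh-LUC cells. Of the 4 genes of factors that bind these promoters beside SREBP2, 2 fell and 1 rose under erastin in sh-LUC cells and 1 fell under DHA there. In sh-IGFBP6 cells 1 rose under erastin, and 2 fell and 1 rose under DHA. NFYB fell under DHA in sh-IGFBP6 (-0.71) and sh-LUC cells (-0.50) and under erastin in sh-LUC cells (-0.41). NFYA rose under DHA (0.35) and erastin (0.45) in sh-IGFBP6 cells and under erastin in sh-LUC cells (0.52). In sh-LUC cells SP1 was at 150.5, 170.4 and 175 CPM in erastin and 192, 205 and 199 CPM in control libraries.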

How the data were processed

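Libraries were made from total RNA after ribosomal RNA depletion, per the labels' protocols. Per the submitters' processing notes, cutadapt 4.4, STAR 2.7.7a, featureCounts and the build GRCh38 were used. The authors deposited raw counts per gene for all 18 libraries. Neither an annotation release nor a strand setting was found in these sources, so reads of overlapping genes on opposite strands may be mixed. Of the deposited lines, 1 with blank counts and 2 that name no gene (at most 0.0108% of a library) were left out, and no pair of libraries was identical. Symbols were matched for 60436 of the 60709 genes.

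Counts were tested with edgeR 4.0.16 in R 4.3.3: filterByExpr (minimum count 10, minimum total 15), TMM scaling, 1 coefficient for each of 6 groups over all 18 libraries, robust quasi-likelihood fits with 12 residual degrees of freedom, and Benjamini-Hochberg adjustment over 15189 genes with a threshold of 0.05. The 9 comparisons were each compound against control in each line, the lines without treatment, the difference of each response between the lines, and DHA against erastin in each line. The scripts were tested on simulated data. Library totals limit the precision, least for the deep libraries and most for the smallest one. Beyond counting noise, the spread between libraries of a group was 6.29% of the level (common biological coefficient of variation). Counting noise adds to it, most for genes with few counts.

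Values by library are given for HMGCS1, SQLE, LSS, INSIG1, INSIG2, SREBF2, STARD4, NPC1, SOAT1 and TM7SF2 and, in each comparison, for members among the 3 largest called changes in each direction; where many were called the rest are summarised. The members and lists were chosen with earlier results of these data known. Some items are not reported here. Alternatives were DESeq2 1.42.0, its size factors in edgeR, library size scaling, no filter, a replicate block, only the groups compared, and leaving out each library. Promoter windows are those of RefSeq on GRCh38.p14; exon lengths and overlaps come from an annotation of GRCh38.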

Additional observations from a re-analysis of the deposited data

Results flagged for a closer look

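The response to a compound differed between the lines in a test of the difference itself (sh-IGFBP6 minus sh-LUC log2 fold change, edgeR's quasi-likelihood test, Benjamini-Hochberg adjusted over all genes) for 15 of the 28 genes under erastin and 7 under DHA. Of the 15, 14 were above 0 and 1 below, where 14.1% of all genes were above and 12% below; of the 7, 6 were above 0 and 1 below, where 10.4% of all genes were above and 10.2% below.

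Under erastin the difference was 0.66 for HMGCS1, 0.70 for MVK, 0.78 for IDI1, 0.58 for FDFT1 and 0.62 for LSS. It was 0.53 for MSMO1, 0.62 for NSDHL, 0.46 for SC5D and 0.59 for DHCR7. It was 0.42 for INSIG1, 0.31 for SREBF2, 1.16 for STARD4, 0.52 for NPC1 and 0.59 for NPC2. SOAT1 was the exception in sign, at -0.37. Library 3 of the sh-IGFBP6 erastin group, where mitochondrial ribosomal RNA took 54.4% of counts, enters all of these; without it 14 of the 15 were still called, MSMO1 being the one lost.

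Under DHA the difference was 0.90 for INSIG1, 0.60 for STARD4, 0.59 for HMGCS1, 0.50 for IDI1, 0.50 for SQLE and 0.40 for NPC1, and -0.87 for LBR. LBR was the gene called in opposite directions, with log2 fold changes of -0.61 in sh-IGFBP6 and 0.26 in sh-LUC cells. HMGCS1, IDI1, INSIG1, STARD4 and NPC1 differed under both compounds, whose responses share the control libraries of each line.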

How the results depend on the processing

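Scaling by library size only changed several counts of calls, with median log2 fold changes over all genes between -0.19 and 0.17. Of the 28 genes it called 9 for DHA in sh-LUC, 11 for DHA in the other line, 3 and 2 for the erastin and DHA differences between lines, and 1 for DHA against erastin in sh-IGFBP6 cells. Of all genes it called 4571 (erastin) and 756 (DHA) in sh-LUC, 2728 and 2579 for the same compounds in sh-IGFBP6, 1327 and 1041 for their differences between lines, and 1541 for DHA against erastin in sh-IGFBP6 cells. Against that, TMM scaling gave 6967, 2546, 4404, 5202, 3973, 3124 and 3928. Its split was 1457 higher and 3114 lower (TMM, 3256 and 3711) for erastin in sh-LUC, 630 and 2098 (2226 and 2178) for erastin in sh-IGFBP6, 859 and 1720 (2644 and 2558) for DHA there, 588 and 739 (2147 and 1826) for the erastin difference, 276 and 765 (1581 and 1543) for the DHA difference, and 4025 and 1453 (3943 and 3675) in sh-LUC and 973 and 568 (1986 and 1942) in sh-IGFBP6 for DHA against erastin. It turned 3 called log2 fold changes: INSIG1 under erastin in sh-IGFBP6 cells to 0.00, and SREBF2 to 0.09 and NPC1 to 0.05 for DHA against erastin there. The cause was not tested, but with the same scaling and without library 3 of sh-IGFBP6 erastin, a setting chosen after seeing the data, the number called of the 28 genes was within 1.5 times that reported in each comparison. The split was not: the DHA difference had 4 genes above 0 and 6 below, against 6 and 1. Over all genes that setting gave 1669 higher and 1123 lower (TMM, 1084 and 1462) after DHA and 2442 and 5002 after erastin (sh-LUC), 1931 and 3496 after DHA and 1605 and 3118 after erastin (sh-IGFBP6), 944 and 2710 in the DHA difference, and 6080 and 2314 for DHA against erastin in sh-LUC. Without the filter on low counts the split was 1257 and 853 after DHA (sh-LUC) and 804 and 1682 in the DHA difference. DESeq2 called 1565 genes for DHA in sh-LUC, 2422 for DHA against erastin in sh-IGFBP6, and 12 of the 28 for DHA against erastin in sh-LUC. Leaving out 1 library gave 2592 to 4029 genes for DHA against erastin in sh-IGFBP6 cells; over the 28 genes 37 of 152 calls were lost in at least 1 of the 18 fits, and 22 others were gained. Same-numbered libraries deviated together weakly at most (correlations -0.07 to 0.11). For DHA against control in sh-LUC cells these correlations were 0.11, 0.02 and 0.10, against -0.12 to 0.02 for other pairs of libraries. The replicate block was thus not taken as a pairing. The fit with that block called 23, 19, 19, 19, 22, 14, 7, 21 and 12 of the 28 genes over the 9 comparisons. With it, 246 of 252 gene results kept their call. Depth limits GGPS1, PMVK, EBP and CYP51A1, which had 597, 772, 1076 and 1386 counts over all libraries.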
